A study of Mus musculus with 6 samples.

Results

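Most of the genes described here serve the uptake, binding, activation and oxidation of fatty acids. The others encode uncoupling proteins, nuclear receptors, and enzymes that remove malonyl-CoA or split acyl-CoA. The list holds 33 named genes grouped by function, chosen with earlier results of these data known. All were found in the deposited table of 56792 gene rows, and the genes of the carnitine shuttle are not among them. RNA sequencing compared C2C12 cells that received 1 µM lenvatinib with untreated C2C12 cells, with 3 libraries in each group. C2C12 is an immortal mouse myoblast line of wild-type genotype by its label, and both groups had been kept in medium with 2% horse serum for 4 days of differentiation, in which such cells fuse into myotubes. Lenvatinib is an anticancer drug that inhibits receptor tyrosine kinases of the vascular endothelial and fibroblast growth factor families. The labels do not say when the drug was added, whether untreated cells received its solvent, or whether the replicates were separate cultures, so each p reflects library-to-library spread that may be purely technical.

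Muscle takes fatty acids from the blood through membrane proteins such as CD36 and the fatty acid transport proteins, carries them on a small binding protein, and links them to coenzyme A with acyl-CoA synthetases. In mitochondria each turn of β-oxidation then runs through an acyl-CoA dehydrogenase, a hydratase, a second dehydrogenase and a thiolase, and electrons from the first step pass through the electron transfer flavoprotein to the respiratory chain. Peroxisome proliferator-activated receptors (PPARs) are nuclear receptors that bind fatty acids and switch on many of these genes.

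Library totals were 24566768 to 32406563 counts with lenvatinib and 25529288 to 28886472 counts without it. Levels are in CPM, a gene's counts as a share of its library's counts over the 14989 tested rows, scaled by factors of 0.996 to 1.007. Means are given ± SD (n = 3 libraries per group). Changes are log2 ratios of lenvatinib to untreated from the quasi-likelihood fit of edgeR, given with their SE. A gene was called where its p, Benjamini-Hochberg adjusted over 14989 tested rows, was under 0.05. The myotube markers were abundant in both groups, and called markers moved in both directions. Myog was at 1036 ± 14.1 CPM with lenvatinib and 856 ± 10.2 CPM without it. Des was at 2949 ± 55.8 CPM with lenvatinib and 3364 ± 83.3 CPM without it. Because the samples were bulk RNA, fewer cells of a type and less RNA per cell cannot be told apart.

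Lenvatinib-treated cells had less transcript of 2 genes by a wide margin, the acyl-CoA synthetase Acsbg1 (5.87-fold lower) and the transport protein Slc27a1 (1.76-fold lower). The abundant genes Acadl and Cd36 were also lower, and Acsl1, Hadh and the uncoupling protein Ucp2 were higher, each by less than 1.5-fold. Acsbg1 and Slc27a1 were the 2 called genes that changed at least 1.5-fold, a size that 5.67% of all tested rows reached with a call. Of 33 genes 32 had enough counts for the test, and 8 rose, 8 fell and 16 did not pass. Over all tested rows 28.2% were called, 13.3% higher and 14.9% lower. Called genes are more frequent among well-counted rows: at a mean of at least 10 CPM, 33.9% of all rows and 15 of the 29 fatty acid genes at that level were called. The median log2 change over the 32 genes was 0.02, beside 0.003 over all tested rows. In 19 of the 32 genes the groups did not overlap, 10 with every lenvatinib library above and 9 with every one below. Over all tested rows the groups did not overlap in 40.1%, with lenvatinib above in 19.6% and below in 20.5%. These shares are not matched for level: 29 of the fatty acid genes had at least 10 CPM, and 18 of them did not overlap. The share of all rows at that level without overlap was not computed, so no excess can be read from these counts. The summed level of the 33 genes was 2461 ± 28.7 CPM with lenvatinib and 2481 ± 32.7 CPM without it.

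**Figure D1:**
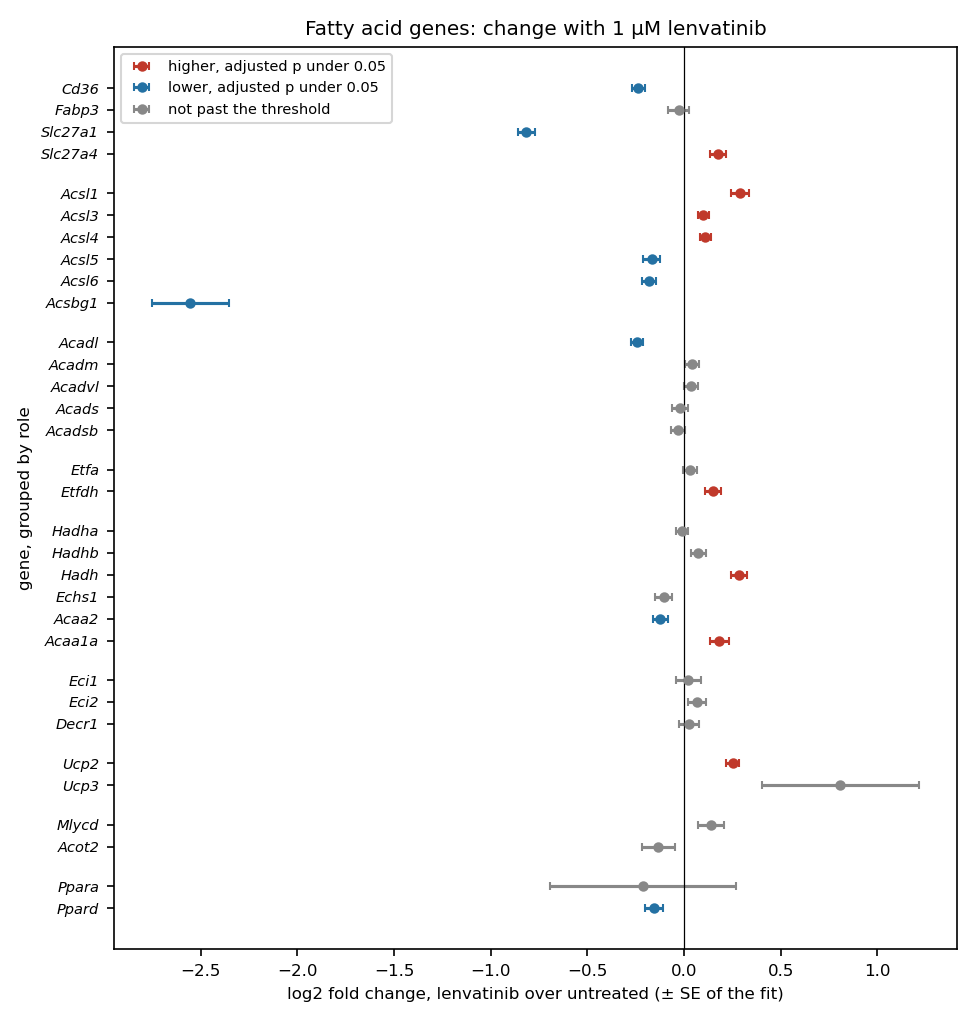
Log2 fold change of the 32 tested fatty acid genes, lenvatinib over untreated, with the SE of the fit as bars, grouped by role. Acsbg1 at -2.55 and Slc27a1 at -0.82 stand left of the others, 8 genes are higher and 8 lower past the threshold, and 16 lie near 0 or have wide errors.

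Uptake genes moved in both directions. Slc27a1, which encodes the fatty acid transport protein FATP1 of muscle and fat (chromosome 8, 72021526 to 72039946 in the deposited table), had 45.3, 42.4 and 46.4 CPM in the lenvatinib libraries and 74.7, 83.3 and 78.5 CPM in the untreated ones. The highest lenvatinib library stayed far below the lowest untreated one, and the gene fell by 0.82 on the log2 scale (SE 0.04, adjusted p = 1.93e-18). Slc27a4, which encodes the related transport protein FATP4, had 61.7, 60.4 and 60.1 CPM with lenvatinib and 51.2, 56.2 and 53.8 CPM without it. It rose by 0.18 (SE 0.04, adjusted p = 0.00111), and its groups did not overlap. Per kilobase of feature length, the level of Slc27a1 was 0.523, 0.501 and 0.55 times that of Slc27a4 in the lenvatinib libraries and 1.04, 1.06 and 1.04 times in the untreated ones. Scaled this way, the 2 transcripts stood at nearly equal levels in untreated cells, while in lenvatinib-treated cells Slc27a4 was the more abundant. Without length scaling, Slc27a1 was the higher in untreated cells, at 78.8 ± 4.33 CPM beside 53.7 ± 2.51 CPM for Slc27a4. The deposited feature length covers 8286 of the 10767 bases spanned by Echs1, so it may not be the length of the transcript. Levels per kilobase are therefore a rough comparison between genes, here and below.

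Cd36 encodes a scavenger receptor that brings fatty acids across the plasma membrane (chromosome 5, 17986688 to 18093799). It had 106.8, 104 and 100.2 CPM with lenvatinib and 119.6, 118.7 and 127.9 CPM without it. All lenvatinib libraries lay below all untreated ones, and the difference of -0.24 (SE 0.04) had an adjusted p of 8.05e-07. Fabp3, the fatty acid binding protein of heart and skeletal muscle, was at 28.9 ± 0.557 CPM with lenvatinib and 29.5 ± 0.44 CPM without it, and did not pass (adjusted p = 0.773, 95% interval of the log2 change -0.14 to 0.08). The RefSeq promoter window of Cd36 is shown because one half-site of the PPAR type, AGGTCA, lies in it. Whether this window lies at the upstream end of the deposited gene row was not determined, since the deposited positions carry no build. The sequence, from RefSeq on GRCm38.p6, is chr5:17835897-17836146 on the minus strand, the 250 bases before the start site, and capitals mark the half-site, which reads TGACCT on this strand.
Cd36: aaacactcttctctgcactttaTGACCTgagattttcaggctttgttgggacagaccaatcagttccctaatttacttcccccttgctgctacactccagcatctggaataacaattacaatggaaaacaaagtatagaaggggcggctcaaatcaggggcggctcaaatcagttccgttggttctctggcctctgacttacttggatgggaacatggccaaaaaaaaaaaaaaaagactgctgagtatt

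CD36 is also a protein of adipocytes, macrophages and endothelium, so their markers are given beside it. Of 9 adipocyte markers, Plin1, Retn and Cfd were at 0 in all libraries, and Adipoq averaged 0 CPM with lenvatinib and 0.0116 CPM without it. The summed adipocyte list was 15.9 to 16.8 CPM with lenvatinib and 21.6 to 24.7 CPM without it, nearly all from Cebpa and Pparg. Of its 2 tested members Cebpa fell by 0.70 on the log2 scale, and Pparg did not pass. The 7 macrophage markers summed to 5.87 to 6.38 CPM with lenvatinib and 6.58 to 7.48 CPM without it, with Adgre1 at 0 in all libraries, and of the 4 tested only Cd14 passed, with a change of -0.54 on the log2 scale. The 6 endothelial markers summed to 2.1 to 2.5 CPM with lenvatinib and 1.88 to 2.48 CPM without it, with Tie1 at 0, and neither tested member was called. The fibroblast list summed to 655 to 734 CPM with lenvatinib and 562 to 590.4 CPM without it, with 2 of 4 tested members higher and 1 lower. Most of this sum was Col1a1, at 615 ± 45.4 CPM with lenvatinib and 483 ± 14.3 CPM without it. Cd248 also rose, Pdgfra fell by 0.41 on the log2 scale, and Dcn did not pass. The myotube list summed to 14876 to 14937 CPM with lenvatinib and 14193 to 14670 CPM without it, with 4 of 8 higher and 2 lower. Des and Actn2 were the lower ones. For each of these lists, the share over all tested rows was 13.3% called higher and 14.9% called lower. At a mean of at least 10 CPM 33.9% of all rows were called in either direction. The part of the fibroblast and myotube lists in the values of the fatty acid genes was not tested.

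All 6 acyl-CoA synthetase genes passed the test, 3 in each direction. Over all tested rows 28.2% were called, and 33.9% at a mean of at least 10 CPM. The genes were chosen with earlier results of these data known. Acsl1, the main long-chain synthetase of muscle, fat and liver (chromosome 8, 46924074 to 46989088), had 45.9, 47.2 and 46.9 CPM with lenvatinib and 38.2, 36.4 and 39.9 CPM without it. It rose by 0.29 (SE 0.05, adjusted p = 6.2e-06), the largest rise among the synthetases, and its groups did not overlap. Acsl3, a synthetase of the endoplasmic reticulum and lipid droplets, had 322.5, 329 and 313 CPM with lenvatinib and 294, 299.8 and 306 CPM without it. Acsl4, which prefers arachidonic acid, had 226, 226 and 227 CPM with lenvatinib and 215, 201 and 213 CPM without it. These rises were small, 0.10 for Acsl3 (SE 0.03, adjusted p = 0.00527) and 0.11 for Acsl4 (SE 0.03, adjusted p = 0.00354). Without the second lenvatinib library Acsl3 no longer passed (adjusted p = 0.0534), nor did Acsl4 without the second untreated library (adjusted p = 0.0512).

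The other synthetase genes fell. Acsl5, whose protein is found at mitochondria and the endoplasmic reticulum, had 51.2, 47.95 and 48.4 CPM with lenvatinib and 54.8, 56.4 and 54.5 CPM without it. It fell by 0.17 (SE 0.04, adjusted p = 0.00236). The span of Acsl5 is overlapped over 26430 bases by Zdhhc6 on the other strand, a row with 7112 counts in the 6 libraries against 8470 for Acsl5, and no source used here gives the strand setting. Rows on the other strand also overlap Fabp3 over 81 bases (Zcchc17, 5512 counts beside 4742) and Acadvl over 2119 bases (Dvl2, 5091 beside 18519). Echs1 is overlapped over 678 bases (Paox, 1285 beside 9935). These counts are those of the whole rows, not of the shared bases. Acsl6, a synthetase best known from brain, had 71.5, 74.8 and 71.99 CPM with lenvatinib and 80.1, 83.04 and 84.2 CPM without it, and fell by 0.18 (SE 0.04, adjusted p = 0.000162). In both genes every lenvatinib library lay below every untreated one.

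Acsbg1 encodes a synthetase of the bubblegum family, known from brain, adrenal gland and testis (chromosome 9, 54512161 to 54569154). It was the least abundant synthetase, with 35, 13 and 38 counts in the lenvatinib libraries and 183, 135 and 184 counts in the untreated ones. In CPM these were 1.41, 0.532 and 1.17 with lenvatinib and 6.88, 5.29 and 6.4 without it. The fall of 2.55 on the log2 scale (SE 0.20, adjusted p = 9.74e-12) was the largest change of the 32 tested genes. Its promoter is shown as that of the gene with the largest change; the 250 bases before the RefSeq start site (GRCm38.p6, chr9:54661886-54662135, minus strand) hold no AGGTCA on either strand and so no capitals.
Acsbg1: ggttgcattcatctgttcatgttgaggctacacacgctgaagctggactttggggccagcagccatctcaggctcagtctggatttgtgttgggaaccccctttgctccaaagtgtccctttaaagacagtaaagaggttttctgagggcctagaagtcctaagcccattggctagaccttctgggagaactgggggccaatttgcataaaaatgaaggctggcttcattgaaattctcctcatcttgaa

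Per kilobase of feature length, Acsl4 and Acsl3 made up most synthetase transcript in both groups. Acsl4 held 44.9 ± 0.448% of the summed length-scaled level of the 6 genes with lenvatinib and 42.8 ± 0.934% without it, and Acsl3 held 33.03 ± 0.582% with lenvatinib and 31.7 ± 0.679% without it. Acsl5 held 10.9 ± 0.373% with lenvatinib and 12.6 ± 0.468% without it. Acsl1 held 4.99 ± 0.0937% with lenvatinib and 4.2 ± 0.12% without it, and Acsbg1 0.324 ± 0.142% with lenvatinib and 1.98 ± 0.235% without it. The genes that moved most, Acsbg1 and Acsl1, were the least abundant of the family per kilobase in untreated cells.

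**Figure D2:**
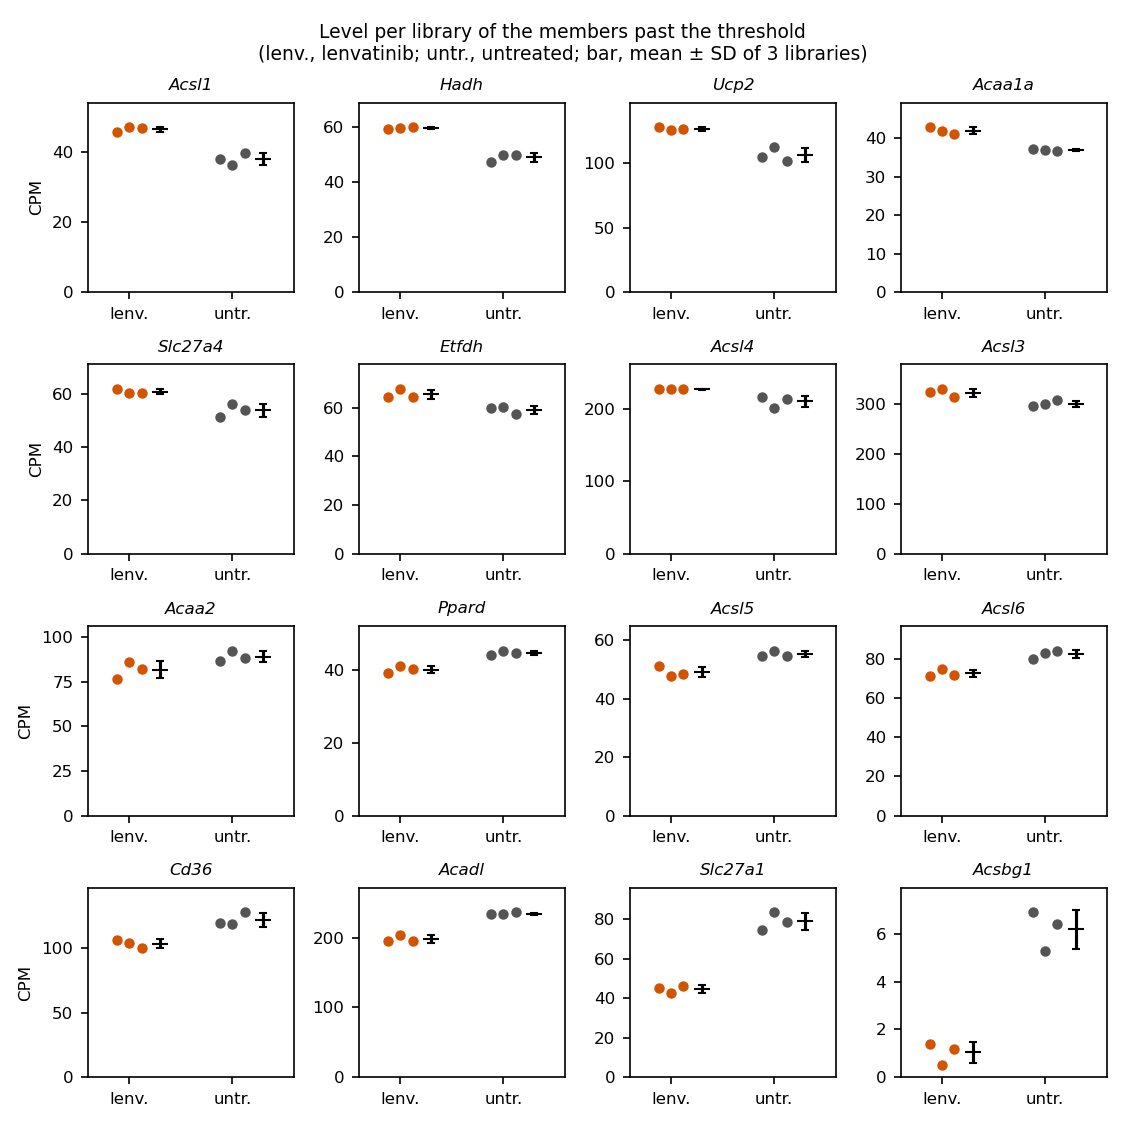
Level in CPM in each of the 3 lenvatinib (orange) and 3 untreated (grey) libraries for the 16 genes past the threshold, ordered from the largest rise to the largest fall, with mean ± SD beside the points. In each panel all lenvatinib libraries lie on one side of all untreated ones, and the gap is wide only for Slc27a1 and Acsbg1.

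Of the 5 acyl-CoA dehydrogenase genes, which catalyse the first step of each turn, 1 fell and 4 did not pass (28.2% of all tested rows were called). Acadl, the long-chain enzyme, is on chromosome 1 from 66869998 to 66902436 and had 194.5, 204 and 194.8 CPM with lenvatinib and 233, 233 and 236 CPM without it. The untreated libraries lay within 3 CPM of each other, all lenvatinib libraries were lower, and the gene fell by 0.24 (SE 0.03, adjusted p = 6.12e-09). Acadl was also the most abundant of the 33 genes per kilobase, at 81.5 ± 2.28 CPM per kilobase of feature length (RPKM) with lenvatinib and 96.4 ± 0.6 RPKM without it. The very-long-chain enzyme gene Acadvl was at 115.7 ± 5.72 CPM with lenvatinib and 112.7 ± 2.06 CPM without it (adjusted p = 0.49). The medium-chain enzyme gene Acadm was at 80.5 ± 0.562 CPM with lenvatinib and 78.2 ± 1.92 CPM without it (adjusted p = 0.437). Acads, for short chains, and Acadsb, for short branched chains, had log2 changes of -0.02 and -0.03 (adjusted p = 0.751 and 0.595). The 95% intervals of the log2 changes of these 4 genes lay between -0.11 and 0.12. The length-scaled level of Acadl was 3.96 ± 0.115 times that of Acadm with lenvatinib and 4.83 ± 0.106 times without it.

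Acadm is a textbook target of nuclear receptors, so its promoter is shown with the half-site in capitals. The 250 bases before the RefSeq start site (GRCm38.p6, chr3:153944644-153944893, minus strand) hold 1 AGGTCA, read as TGACCT on this strand, at the far end of the window and within the longer AAGGTCA.
Acadm: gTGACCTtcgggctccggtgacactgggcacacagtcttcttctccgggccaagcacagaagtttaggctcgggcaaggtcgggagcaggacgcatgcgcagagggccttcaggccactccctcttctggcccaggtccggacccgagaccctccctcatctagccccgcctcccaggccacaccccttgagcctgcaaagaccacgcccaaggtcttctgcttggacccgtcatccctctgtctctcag

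Electrons from these dehydrogenases pass to the electron transfer flavoprotein, made of the products of Etfa and Etfb, and on to its dehydrogenase, the product of Etfdh. Etfdh had 64.6, 67.7 and 64.5 CPM with lenvatinib and 59.9, 60.4 and 57.3 CPM without it, did not overlap, and rose by 0.15 (SE 0.04, adjusted p = 0.00366). A row on the other strand, 4930579G24Rik, overlaps 422 bases of Etfdh and holds 1088 counts, beside 10121 for Etfdh. Etfa, the most abundant gene of this group, had 84.8, 78.7 and 81.3 CPM with lenvatinib and 78.9, 80.03 and 80.5 CPM without it, and its groups overlapped (adjusted p = 0.576). Etfb is listed at 0 in all 6 libraries and could not be tested. Its span of 13718 bases is overlapped over 13673 bases on the same strand by the row of Etfbl, also at 0, so the 0 says nothing about whether the transcript was there.

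The later steps of β-oxidation gave 2 rises and 1 fall among 6 genes, beside 28.2% called over all tested rows. Hadh, the short-chain hydroxyacyl-CoA dehydrogenase (chromosome 3, 131027068 to 131065750), had 59.2, 59.5 and 59.8 CPM with lenvatinib and 47.1, 49.7 and 49.9 CPM without it. The lenvatinib libraries lay close together above all untreated ones, and Hadh rose by 0.28 (SE 0.04, adjusted p = 8.19e-07). Acaa1a, a thiolase of peroxisomes, had 42.8, 41.9 and 41.1 CPM with lenvatinib and 37.1, 37.04 and 36.7 CPM without it, and rose by 0.18 (SE 0.05, adjusted p = 0.00291). Acaa1a has a close paralog, Acaa1b (6.67 ± 1.01 CPM with lenvatinib and 6.8 ± 0.463 CPM without it), with which it can share reads. Myd88 overlaps 1736 bases of Acaa1a on the other strand, with 1924 counts beside 6402. Acaa2, the mitochondrial thiolase, had 76.8, 86.3 and 82.03 CPM with lenvatinib and 86.4, 92.5 and 88.3 CPM without it. Its fall of 0.12 (SE 0.04, adjusted p = 0.0151) was the called change with the largest p; it no longer passed with DESeq2 (adjusted p = 0.0714), without the first lenvatinib library (adjusted p = 0.149) or without the second untreated library (adjusted p = 0.0978). Echs1, the short-chain enoyl-CoA hydratase, was at 59.05 ± 1.42 CPM with lenvatinib and 63.5 ± 4.39 CPM without it, and did not pass (-0.10, SE 0.04, adjusted p = 0.0702). It passed without the first or without the third untreated library (adjusted p = 0.0427 and 0.0379).

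Hadha and Hadhb encode the α and β subunits of the mitochondrial trifunctional protein, which joins the last 3 steps for long chains, and neither passed. Hadha had 203.9, 207.9 and 197 CPM with lenvatinib and 199.9, 205 and 208 CPM without it (-0.01, SE 0.03, adjusted p = 0.833). Hadhb had 75.6, 76.2 and 73.1 CPM with lenvatinib and 67.1, 72.7 and 73.6 CPM without it (0.07, SE 0.04, adjusted p = 0.164). In both genes the groups overlapped, and the 95% intervals of the log2 change were -0.07 to 0.05 for Hadha and -0.01 to 0.15 for Hadhb. The pair lies head to head on chromosome 5, with 85 bases between the gene ends in the deposited table and 272 bases between the RefSeq start sites. The sequence between them is shown because both genes start from it; its 250 bases next to Hadhb are given in the direction of Hadhb (RefSeq, GRCm38.p6, chr5:30155003-30155252, plus strand). They hold no AGGTCA and so no capitals.
Hadhb: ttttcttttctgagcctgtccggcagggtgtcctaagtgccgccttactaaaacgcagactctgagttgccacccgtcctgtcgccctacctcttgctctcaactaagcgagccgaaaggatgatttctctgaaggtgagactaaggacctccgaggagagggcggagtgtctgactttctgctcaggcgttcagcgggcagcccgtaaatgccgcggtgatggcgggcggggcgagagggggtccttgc

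Genes for fatty acids with double bonds did not pass. The mitochondrial isomerase gene Eci1, the most abundant of them per kilobase, had 22.7, 24.3 and 23.3 CPM with lenvatinib and 21.7, 22.5 and 25 CPM without it (adjusted p = 0.84). The isomerase gene Eci2 was at 43.5 ± 1.24 CPM with lenvatinib and 41.5 ± 1.59 CPM without it (adjusted p = 0.322). The dienoyl-CoA reductase gene Decr1 was at 39.9 ± 0.761 CPM with lenvatinib and 39.2 ± 2.71 CPM without it (adjusted p = 0.757). All 3 genes had overlapping groups, and their log2 changes were 0.02 to 0.07.

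Of the uncoupling protein genes, Ucp2 rose. Ucp2, a carrier of the mitochondrial inner membrane (chromosome 7, 100142544 to 100151227), had 127.8, 125 and 126 CPM with lenvatinib and 104.9, 112 and 101.8 CPM without it. Every lenvatinib library lay above every untreated one, and the rise was 0.25 (SE 0.03, adjusted p = 1.82e-07). Ucp3, the muscle-type relative next to it on the chromosome, had 9, 18 and 21 counts with lenvatinib and 11, 6 and 10 counts without it, and Gm10603 overlaps 1857 of its bases on the other strand with 40 counts beside 75. At these counts its log2 change of 0.81 had an SE of 0.41 and did not pass (adjusted p = 0.143). The 95% interval of -0.015 to 1.629 was wide, so the size of any change in Ucp3 stays uncertain.

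Neither Mlycd nor Acot2 passed. Mlycd, which encodes the decarboxylase that removes malonyl-CoA, the inhibitor of mitochondrial fatty acid entry, had 19.03, 19.9 and 18.7 CPM with lenvatinib and 18.2, 17.2 and 17 CPM without it. Its groups did not overlap, but the log2 change of 0.14 (SE 0.07) had an adjusted p of 0.131. Acot2, a mitochondrial thioesterase that releases free fatty acids from acyl-CoA, had 12.9, 13.95 and 10.8 CPM with lenvatinib and 13.4, 13.7 and 13.9 CPM without it, with overlapping groups (adjusted p = 0.267). Reads of Acot2 can be split with its close paralog Acot1 (2.73 ± 0.354 CPM with lenvatinib and 3.71 ± 0.808 CPM without it). Acot1 fell by 0.44 (SE 0.17, adjusted p = 0.0413) with overlapping groups.

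Of the nuclear receptor genes, Ppard fell and Ppara was barely counted. Ppard, the PPAR form that prevails in skeletal muscle, had 38.99, 40.8 and 40.1 CPM with lenvatinib and 43.9, 45.1 and 44.5 CPM without it. The groups did not overlap, and the fall was 0.16 (SE 0.05, adjusted p = 0.00942); with DESeq2 the adjusted p was 0.0536. Ppara, the form of liver and heart, had 14, 4 and 9 counts with lenvatinib and 12, 14 and 5 counts without it, and did not pass (adjusted p = 0.8). The 95% interval of its log2 change was wide, -1.185 to 0.764.

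**Figure D3:**
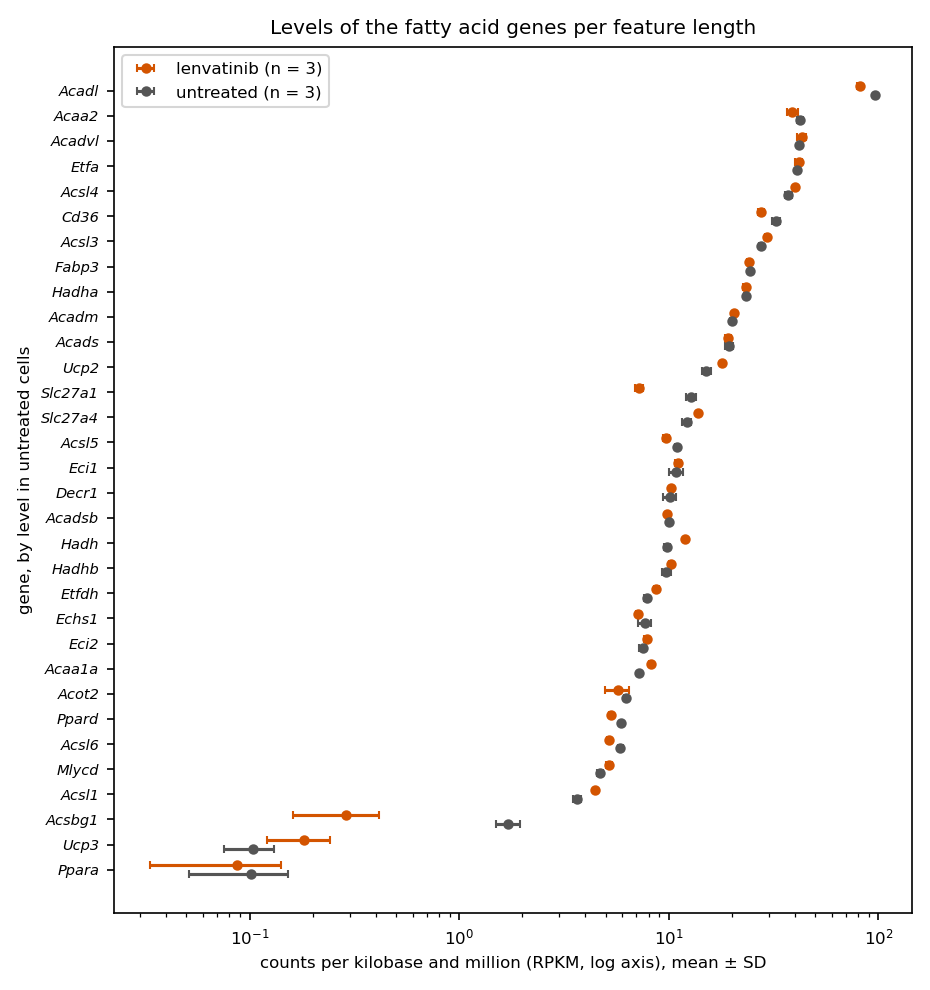
Level of the 32 fatty acid genes with counts, in CPM per kilobase of feature length (RPKM, log axis), as mean ± SD of 3 lenvatinib (orange) and 3 untreated (grey) libraries, from the highest to the lowest untreated level. Acadl is highest at 81.5 RPKM with lenvatinib and 96.4 RPKM without it, and Ppara is lowest at 0.0875 RPKM with lenvatinib and 0.102 RPKM without it.

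The promoters were searched for the PPAR half-site AGGTCA, for AAGGTCA, which contains it and is the site of estrogen-related receptors, and for a direct repeat of AGGTCA with 1 base of any kind (N) between the copies, on both strands. RefSeq windows of 300 bases were found for 31 of the 33 genes, 36 windows in all since 3 genes have more than 1; Decr1 and Acaa2 had none. AGGTCA occurred in 6 of 36 windows (16.7%), those of Acadm, Acadvl, Acsl6, Cd36, Echs1 and Ucp3, and in 16.3% of all 32851 windows. AAGGTCA occurred in 2 of 36 (5.56%), those of Acadm and Acsl6, and in 4.72% of all windows. The direct repeat was in none of the 36 windows and in 0.0396% of all windows. Of the 6 genes with AGGTCA, Acsl6 and Cd36 fell and the other 4 did not pass.

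**Figure D4:**
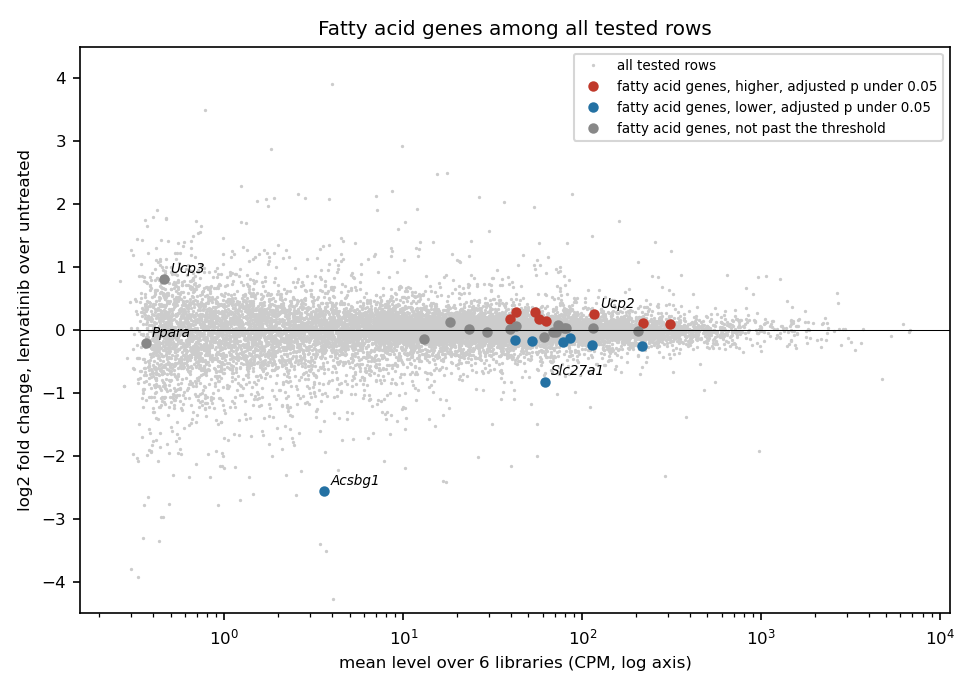
Log2 fold change, lenvatinib over untreated, against mean CPM over 6 libraries (log axis) for all 14989 tested rows (light grey; 4 rows lie beyond the plotted range) and for the 32 tested fatty acid genes (colours). The fatty acid genes above 10 CPM lie close to 0 on the vertical axis, apart from Slc27a1 at -0.82, and Acsbg1 lies below them at -2.55.

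Other genes of fatty acid handling were read from 74 genes listed by function. Of these 73 were found and 64 tested; 12 rose, 10 fell and 42 did not pass, beside 28.2% called over all tested rows and 33.9% at a mean of at least 10 CPM. Their median log2 change was 0.005. In the list of further uptake, binding and activation genes 4 of 7 tested members rose and 1 fell. Fabp5, a fatty acid binding protein of skin and macrophages, had 18.1, 17.2 and 16.4 CPM with lenvatinib and 7.9, 5.92 and 7.37 CPM without it. Every lenvatinib library held more than any untreated one, and the rise of 1.28 (SE 0.09, adjusted p = 5.24e-15) was opposite in direction to the fall of Slc27a1. Cav1, the caveolar coat protein, was at 152 ± 2.29 CPM with lenvatinib and 124.7 ± 4.99 CPM without it (0.29, SE 0.03, adjusted p = 2.48e-09). Slc27a3, a further member of the transport protein family, was at 6.21 ± 0.583 CPM with lenvatinib and 3.98 ± 0.384 CPM without it (0.63, SE 0.13, adjusted p = 0.000125).

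Lipid storage genes moved in both directions, with 2 of 12 tested members higher and 4 lower, beside 13.3% and 14.9% of all tested rows. G0s2, an inhibitor of the triglyceride lipase ATGL, had 30.9, 28.4 and 28.8 CPM with lenvatinib and 43.5, 39.3 and 43.5 CPM without it, and fell by 0.52 (SE 0.05, adjusted p = 2.28e-10). Plin2, the lipid droplet coat protein, was at 99.4 ± 1.85 CPM with lenvatinib and 122 ± 2.46 CPM without it, and fell by 0.30 (SE 0.03, adjusted p = 1.51e-09). Mgll, the lipase that splits monoglycerides, was at 37.4 ± 1.66 CPM with lenvatinib and 26.4 ± 0.541 CPM without it, and rose by 0.50 (SE 0.05, adjusted p = 6.28e-10). None of these 3 genes had overlapping groups. Pnpla2, which encodes ATGL itself, also fell, by 0.17 (SE 0.06, adjusted p = 0.0147) without overlap, and is named after its values were seen. Lipolysis was not tested.

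Among the PPAR partners, targets and malonyl-CoA makers 2 of 7 tested genes rose and 2 fell, beside 13.3% and 14.9% of all tested rows. The fallen ones were a PPAR target and a malonyl-CoA maker. Angptl4, a secreted inhibitor of lipoprotein lipase and a PPAR target, had 7.6, 8.47 and 8.74 CPM with lenvatinib and 13.7, 12.9 and 13.9 CPM without it, and fell by 0.70 (SE 0.09, adjusted p = 2.23e-08). Pdk4, a kinase that closes pyruvate entry into mitochondria and also a PPAR target, was at 39.9 ± 0.674 CPM with lenvatinib and 33.5 ± 0.937 CPM without it, and rose by 0.25 (SE 0.05, adjusted p = 0.000102). Rxra, a partner receptor of PPARs, rose by 0.13 (SE 0.04, adjusted p = 0.00613). Acaca, an acetyl-CoA carboxylase that makes malonyl-CoA, was at 88.7 ± 3.58 CPM with lenvatinib and 99.3 ± 7.2 CPM without it; it fell by 0.16 (SE 0.04, adjusted p = 0.00802) with overlapping groups, and is named after its values were seen.

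In the list of other mitochondrial enzymes 3 of 23 rose and 2 fell. The isovaleryl-CoA dehydrogenase gene Ivd fell by 0.14 (adjusted p = 0.00317), and the other fall was that of Acot1, given above. The thioesterase gene Acot7 rose by 0.16 (adjusted p = 0.0041), and Pccb, a subunit of propionyl-CoA carboxylase, rose by 0.17 with overlapping groups (adjusted p = 0.0354). In the peroxisomal list 1 of 15 rose and 1 fell; over all tested rows 13.3% were called higher and 14.9% lower. The racemase gene Amacr fell by 0.15 (adjusted p = 0.00577), and the transporter gene Abcd3 did not pass (0.10, adjusted p = 0.0848).

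**Figure D5:**
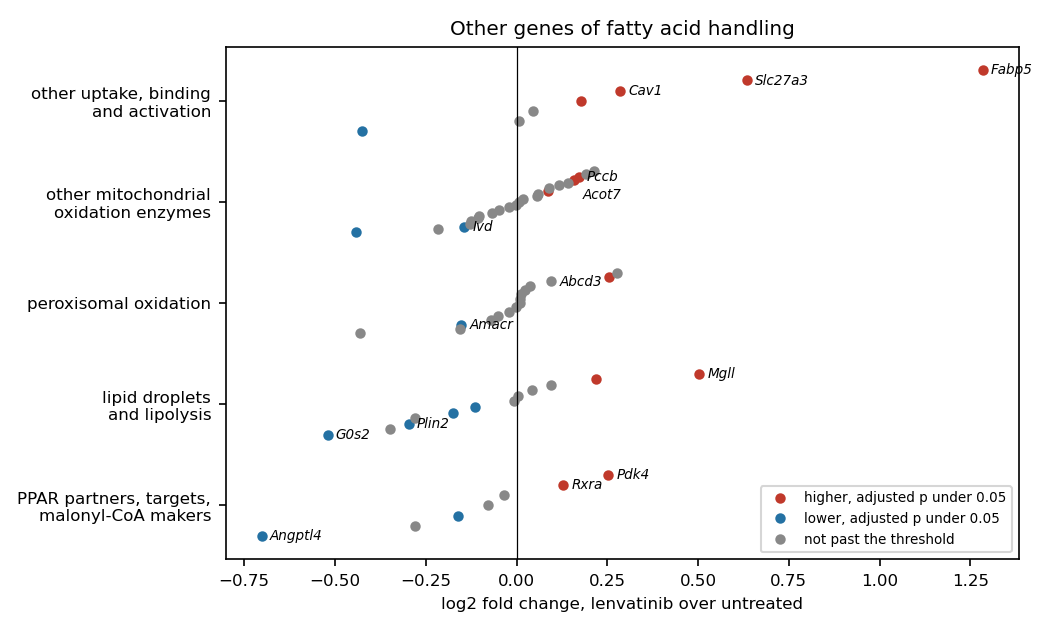
Log2 fold change, lenvatinib over untreated, of the 64 tested genes in 5 further lists of fatty acid handling, with 2 or 3 genes of each list named. Most genes of the oxidation lists lie near 0, with Acot1 at -0.44, while Fabp5 lies at 1.28 and Angptl4 at -0.70.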

How the data were processed

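Whole-number read counts per gene row, not normalized, were used as the authors deposited them, with 1 column for each of 3 lenvatinib and 3 untreated libraries; groups and replicate numbers came from the sample titles. Per the labels' protocols, Hisat2 2.0.1 was the aligner, and HTSeq 0.6.1 and mm10 are named in the submitters' processing notes; no source used here gives the library kit, read filters or strand setting. Positions are printed as deposited, without a build, since 2.97% of 51863 gene identifiers shared with GENCODE M21 (GRCm38) have the same start and end there. The deposited feature length (unit other, not normalized) was used to compute RPKM here.

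Rows kept by edgeR filterByExpr (minimum count 10, minimum total count 15) were tested with the quasi-likelihood test of edgeR 4.0.16 in R 4.3.3, with TMM factors and robust estimation, and adjusted over all 14989 rows. CPM, log2 fold changes and 95% intervals were computed here; the biological coefficient of variation was 3.6%. The fit was also run on counts simulated from its own means and dispersions. Such a run cannot test whether the model suits the real libraries. Alternatives used DESeq2 1.42.0, limma-voom (limma 3.58.1), other scalings and filters, the replicate number as a block, and each library left out. Members and lists were chosen with earlier results of these data known, so lists are described by counts and medians without a test. Each of the 33 genes is named, with library values for called genes and the most abundant of each role; of each further list the 3 genes with the smallest p are named, except 1 gene that is not reported here. Replicates differed by more than sampling noise (chi-square per degree of freedom 2.78 to 5.6), and intervals cover no bias of counting. Same-numbered libraries did not deviate together (correlation -0.078 to 0.022 over 10002 genes), so the numbers were not taken as pairs.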

Additional observations from a re-analysis of the deposited data

How the results depend on the processing

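Under 14 alternatives (other scalings, filters and tools, the replicate block, each library left out) 7 to 8 of the fatty acid genes rose and 6 to 9 fell, beside 8 and 8. With the replicate block 8 rose and 8 fell, and 1952 and 2182 of all rows. Of the 16 called genes 12 passed under each alternative; the others, Acsl3, Acsl4, Acaa2 and Ppard, were each lost under at least 1, with the direction unchanged and the cause not tested. Over all rows 1412 to 2143 were higher and 1627 to 2240 lower, the lowest with DESeq2. Of the further genes 9 to 12 rose and 7 to 11 fell. The sign turned only in genes that did not pass, when 1 library was left out: the log2 change then ranged from -0.003 to 0.06 for Acadvl, -0.041 to 0.013 for Acads, -0.027 to 0.011 for Hadha, -0.02 to 0.088 for Eci1, -0.029 to 0.062 for Decr1 and -0.743 to 0.106 for Ppara. Depth limits Ucp3 and Ppara; 3 counts correspond to 0.0927 to 0.123 CPM, which covers counting error only.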
